A study of Rattus norvegicus with 16 samples.

Results

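The transcripts described here encode neuronal calcium-binding proteins: the buffers calbindin (Calb1), calretinin (Calb2) and parvalbumin (Pvalb), the sensors hippocalcin (Hpca), visinin-like 1 (Vsnl1) and neurocalcin delta (Ncald), and neurogranin (Nrgn). They were taken by name, as every probe set for which the platform annotation gives 1 of these 7 symbols. This gave 7 of the 8740 probe sets that are not controls, and they stand for 6 of the 4736 genes named by a probe set with 1 symbol, Nrgn with 2 probe sets and the others with 1 each. No probe set carried the symbol Ncald in the annotation, so Ncald is not analysed here. RNA came from the rat dentate gyrus and was hybridised to 16 Affymetrix RGU34A arrays, 1 RNA sample to an array. The arrays were labelled naive (3), 0 h (2), 2 h (2), 3 h (2), 6 h (3), 12 h (2) and 24 h (2), and all labels speak of rats trained in passive avoidance, a task in which an animal learns to withhold a punished response. Naive is read as untrained, although its label names trained rats too. The labels give neither strain, age nor the event that the hours count from, and do not say that replicates came from separate animals, so the spread between replicates may be technical.

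Neurons read calcium signals through proteins that hold the ion in a helix-loop-helix fold, the EF-hand. Buffers such as calbindin, calretinin and parvalbumin bind calcium and shape how far and how long a signal lasts, while sensors of the hippocalcin and visinin-like family change shape on binding it and move to membranes. Neurogranin has no EF-hand; it holds calmodulin when calcium is low and releases it when calcium rises. In the dentate gyrus calbindin is known as a protein of mature granule cells, parvalbumin of fast-spiking basket cells, and calretinin of hilar cells, interneurons and young granule cells. Hippocalcin, visinin-like 1 and neurogranin are abundant in principal neurons of the hippocampus.

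No difference between groups passed the test for any of the 6 genes. The F test of limma over the 7 groups, adjusted by Benjamini-Hochberg over all 6220 probe sets that could be tested, called none of the 7 members (0 of 7; all probe sets, 0%). Before adjustment it gave 0 of 7 members a p under 0.05, and 10.3% of all probe sets. The smallest adjusted p of a member in limma's F test was 0.663, for Vsnl1. Among the 6 hours alone the same counts were 0 and 0 of 7 members, with 0% and 10.8% of all probe sets. For the mean of all hours against naive they were 0 and 0 of 7, with 0% and 5.35% of all. Each hour was also set against naive, which makes 42 differences for the 7 probe sets. They share the same 3 naive arrays and are not independent. Of these 42 differences 22 were positive and 20 negative, 0 passed limma's test after adjustment, and 1, Vsnl1 at 6 h, had an unadjusted p under 0.05. Among all 6220 probe sets the share called after adjustment was 0.0161% at 2 h and 0% at every other hour. The share with an unadjusted p under 0.05 was 5% at 0 h, 7.67% at 2 h, 4.31% at 3 h, 9.41% at 6 h, 10.1% at 12 h and 4.44% at 24 h.

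**Figure D1:**
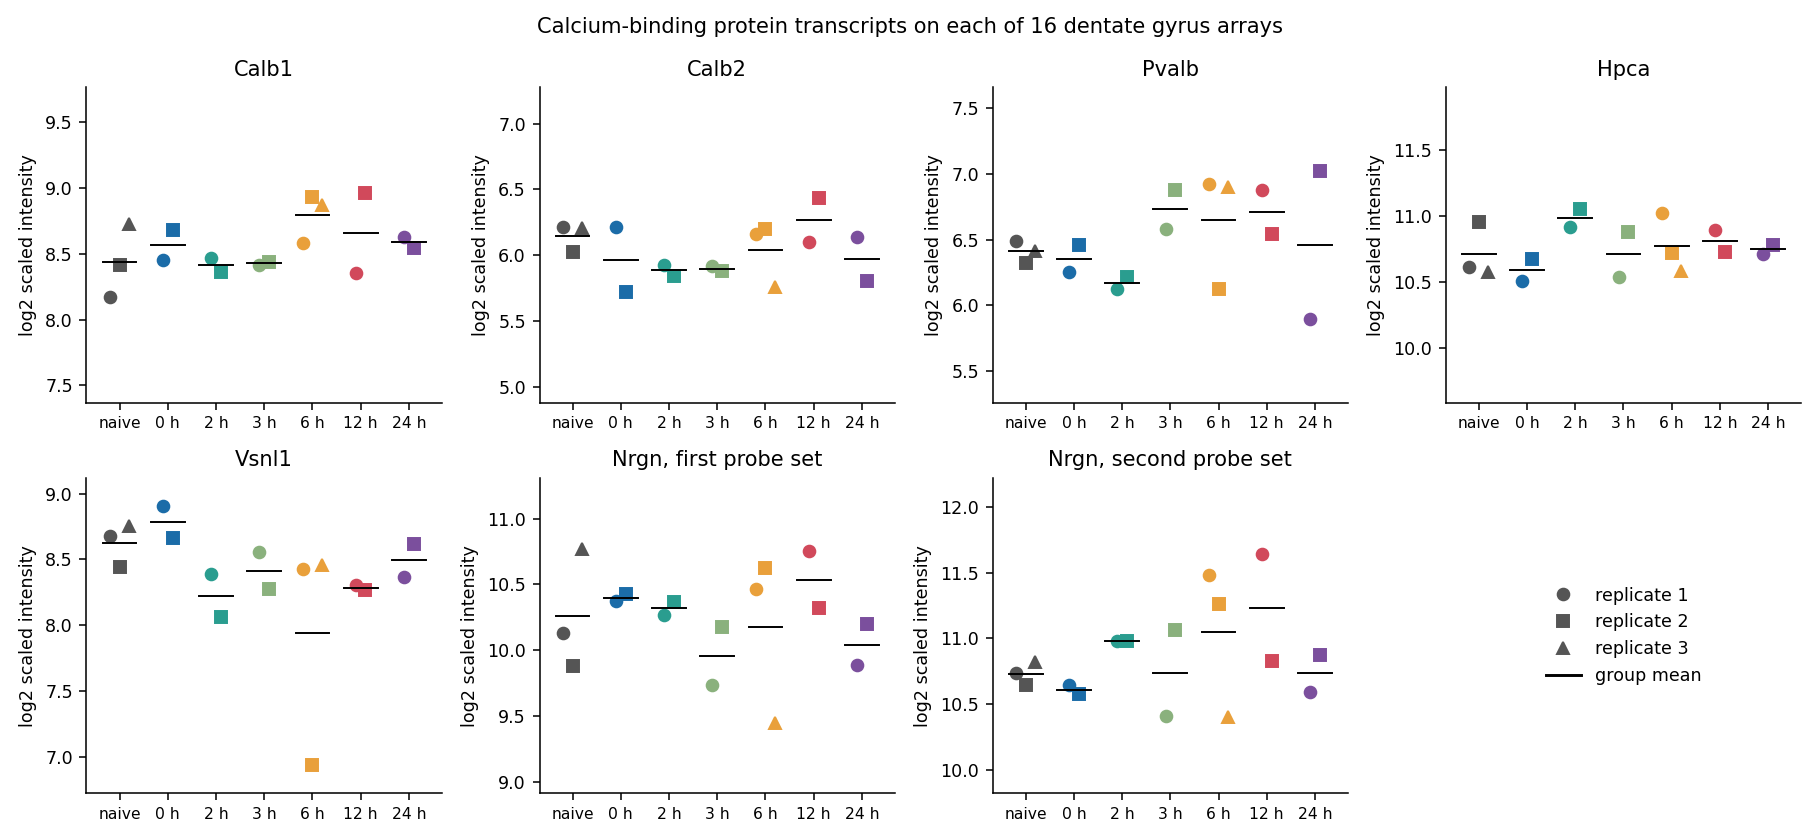
Log2 scaled intensity (vertical axis) of each calcium-binding protein probe set on each array, by group (horizontal axis). Symbols give the replicate number and lines the group mean, and every panel spans the same number of log2 units. In 10 of the 42 pairs of a probe set and an hour the arrays lie wholly outside the naive range, and the lowest Vsnl1 value, 6.93 on 6 h replicate 2, lies apart from the other 15 arrays.

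Levels are given as log2 of the scaled intensity, where a step of 1 is a doubling of a probe set's own signal. Probe sets bind with different strength, so a level is compared only with the same probe set on other arrays. All 7 probe sets were above the filter on dim signals on all 16 arrays, and none was at the lowest level on any array. Before scaling, the deposited intensities of Hpca ran from 602.9 to 2851, a 4.73-fold range; after scaling its range was 1.46-fold. In bulk tissue, fewer cells of a type and less RNA per cell cannot be told apart.

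For calbindin, the buffer that marks mature granule cells, no difference passed the test. The Calb1 probe set (M31178_g_at) read 8.17, 8.42 and 8.73 in naive replicates 1 to 3, 8.45 and 8.68 at 0 h, and 8.47 and 8.36 at 2 h. It read 8.42 and 8.44 at 3 h, 8.58, 8.93 and 8.87 at 6 h, 8.36 and 8.96 at 12 h, and 8.63 and 8.55 at 24 h. The naive arrays alone covered most of this span, and no hour lay wholly above or below them. From lowest to highest mean, the order was 2 h, 3 h, naive, 0 h, 24 h, 12 h and 6 h. No step between neighbours in this order was larger than the within-group SD of 0.22, and the largest was 0.14. The smallest p against naive was at 6 h, where Calb1 was higher by 0.36 (SE 0.20, limma adjusted p = 0.581, above the naive mean in 3 of 3 arrays). The 95% interval of that difference was -0.06 to 0.78. Over all hours the difference was 0.13 (SE 0.16, limma adjusted p = 0.989), with 10 of 13 arrays above the naive mean. Without naive replicate 1 these values were 0.22 at 6 h and 0.0011 over all hours, and without naive replicate 3 they were 0.50 and 0.28. The intervals at the 6 hours reached at most a 1.71-fold rise and a 1.41-fold fall.

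Calretinin (Calb2, X66974_at) had a similarly small spread, with a within-group SD of 0.21. It read 6.21, 6.02 and 6.21 in naive arrays, 6.21 and 5.72 at 0 h, and 5.92 and 5.84 at 2 h. It then read 5.92 and 5.88 at 3 h, 6.16, 6.20 and 5.76 at 6 h, 6.10 and 6.44 at 12 h, and 6.14 and 5.80 at 24 h. The 2 h and 3 h arrays all lay just below the lowest naive array, and the other groups overlapped with naive. The order of the means was 2 h, 3 h, 0 h, 24 h, 6 h, naive and 12 h, and its largest step, 0.12, was below the within-group SD. At 2 h Calb2 was -0.26 from naive (SE 0.25, 95% interval -0.79 to 0.26, limma adjusted p = 0.823), and both arrays were under the mean of naive. Over all hours it was -0.14 (SE 0.18, limma adjusted p = 0.989), with 4 of 13 arrays above the naive mean. Fitting the level of Ttr, a choroid plexus transcript, as a covariate gave -0.015 at 2 h and 0.070 over all hours. Fitting the 3'/5' ratio of the beta-actin control in its place gave -0.43 and -0.28.

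Parvalbumin (Pvalb, rc_AI175539_at), the buffer of fast-spiking interneurons, varied more within groups than between them. Naive arrays were close together at 6.49, 6.32 and 6.42. The 0 h arrays read 6.26 and 6.46, the 2 h arrays 6.13 and 6.22, and the 3 h arrays 6.58 and 6.88. At 6 h the values were 6.92, 6.13 and 6.90, at 12 h 6.88 and 6.55, and at 24 h 5.90 and 7.02. The 24 h arrays were thus the lowest and the highest of all 16. Means ran in the order 2 h, 0 h, naive, 24 h, 6 h, 12 h and 3 h, with a largest step of 0.19 against a within-group SD of 0.36. Of the neighbours in this order, only the 2 h and 0 h arrays did not overlap. The smallest p was at 3 h, at 0.32 above naive (SE 0.31, 95% interval -0.34 to 0.98, limma adjusted p = 0.998, above the naive mean in 2 of 2 arrays). Over all hours Pvalb was 0.10 above naive (SE 0.22, limma adjusted p = 0.994; 8 of 13 arrays above the naive mean). Without 3 h replicate 2 the 3 h value was 0.17, and with median centring 0.51. The value over all hours was 0.0095 without 24 h replicate 2 and 0.20 without 24 h replicate 1.

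Hippocalcin, a sensor of hippocampal principal neurons, had the smallest within-group SD of the 7 probe sets. Hpca (D12573_at) read 10.61, 10.96 and 10.58 in naive arrays, 10.51 and 10.67 at 0 h, and 10.92 and 11.05 at 2 h. It read 10.54 and 10.88 at 3 h, 11.02, 10.72 and 10.59 at 6 h, 10.90 and 10.72 at 12 h, and 10.71 and 10.78 at 24 h. Every hour overlapped with the naive range. The within-group SD was 0.18, and 95.1% of the 6220 tested probe sets had a larger one (median 0.37). Means ran in the order 0 h, 3 h, naive, 24 h, 6 h, 12 h and 2 h, and no step exceeded that SD; of neighbours, only 12 h and 2 h did not overlap. At 2 h Hpca was 0.27 above naive (SE 0.20, 95% interval -0.16 to 0.70, limma adjusted p = 0.779, above the naive mean in 2 of 2 arrays), and 0.05 with quantile normalization. The difference over all hours was 0.05 (SE 0.14, limma adjusted p = 0.999), with 8 of 13 arrays above the naive mean. The intervals at the 6 hours reached at most a 1.62-fold rise and a 1.47-fold fall.

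**Figure D2:**
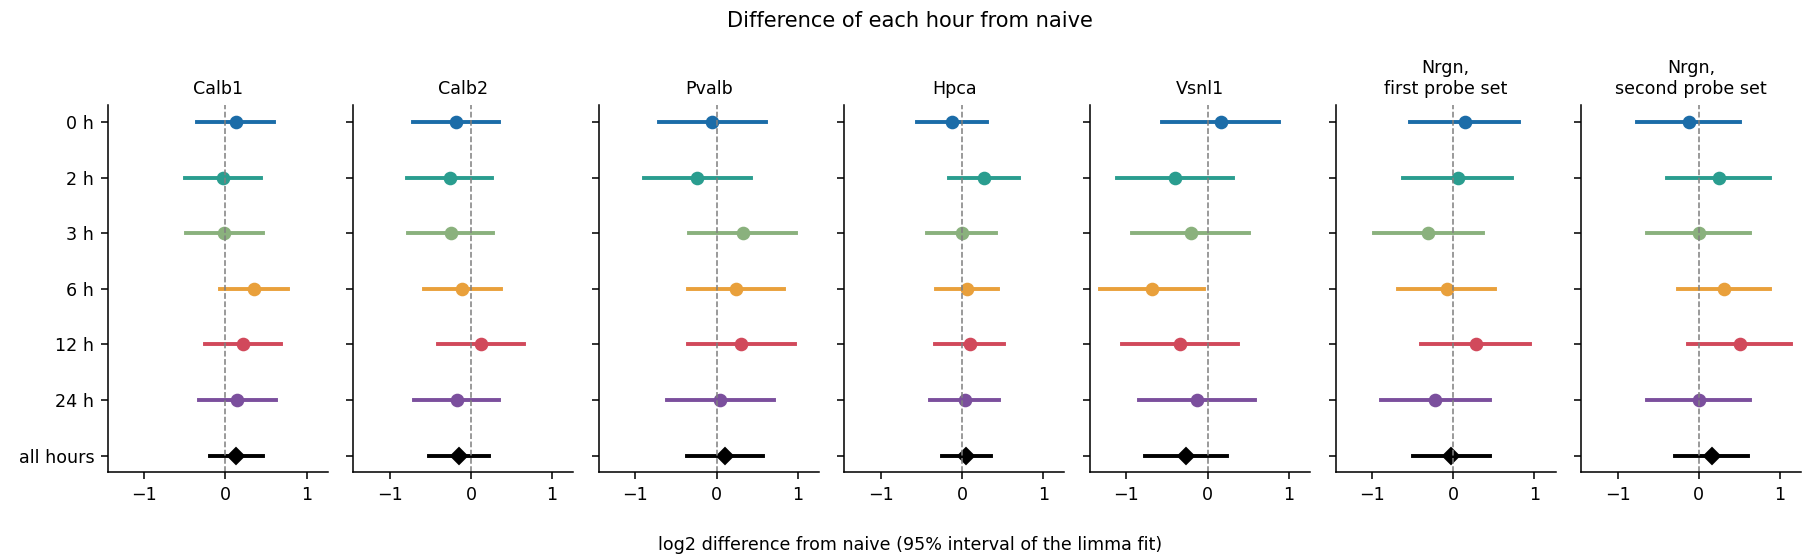
Log2 difference from naive (horizontal axis) for each hour and for all hours (vertical axis), by probe set. Points are estimates of the limma fit and bars their 95% intervals; 41 of the 42 intervals for single hours include 0, and that of Vsnl1 at 6 h ends just below it, at -0.04.

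Visinin-like 1, another sensor of the same family, gave the largest difference of the group. Vsnl1 (D10666_at) read 8.68, 8.44 and 8.75 in naive arrays, 8.90 and 8.66 at 0 h, and 8.39 and 8.06 at 2 h. It read 8.56 and 8.27 at 3 h, 8.43, 6.93 and 8.46 at 6 h, 8.30 and 8.27 at 12 h, and 8.36 and 8.62 at 24 h. The 2 h and 12 h arrays lay below all naive arrays, and 11 of 13 arrays at any hour were below the naive mean. Means ran in the order 6 h, 2 h, 12 h, 3 h, 24 h, naive and 0 h, all neighbours overlapped, and the largest step of 0.28 was below the within-group SD of 0.44. At 6 h Vsnl1 was -0.68 from naive (SE 0.30, 95% interval -1.33 to -0.04, unadjusted p = 0.0382, limma adjusted p = 0.496), and all 3 arrays were below the naive mean. At 6 h 6.29% of all probe sets had an unadjusted p under 0.05 and were lower, and 9.41% had one in either direction. This estimate rested on 6 h replicate 2: without that array it was -0.18 (SE 0.19, limma adjusted p = 0.922), and over all alternatives of this result the adjusted p ran from 0.182 to 0.945. It was -0.44 with array weights and -0.34 with the actin ratio as a covariate. Over all hours Vsnl1 was -0.27 (SE 0.24, limma adjusted p = 0.981), and -0.18 (SE 0.13, limma adjusted p = 0.934) without 6 h replicate 2.

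On 6 h replicate 2, Vsnl1 was 1.12 below its next lowest array. This array was the lowest of 16 for 880 of the 6220 tested probe sets (14.1%), where the other arrays were lowest for 202 to 621. For 73 of those 880 the gap to the next array was at least that of Vsnl1, against at most 25 probe sets on any other array. The same array had the highest ratio of the 3' to the 5' Gapdh control (2.04, others 1.12 to 1.70) and the lowest median correlation with the other arrays (0.916, others 0.924 to 0.953). The part of these in the Vsnl1 value was not tested.

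**Figure D3:**
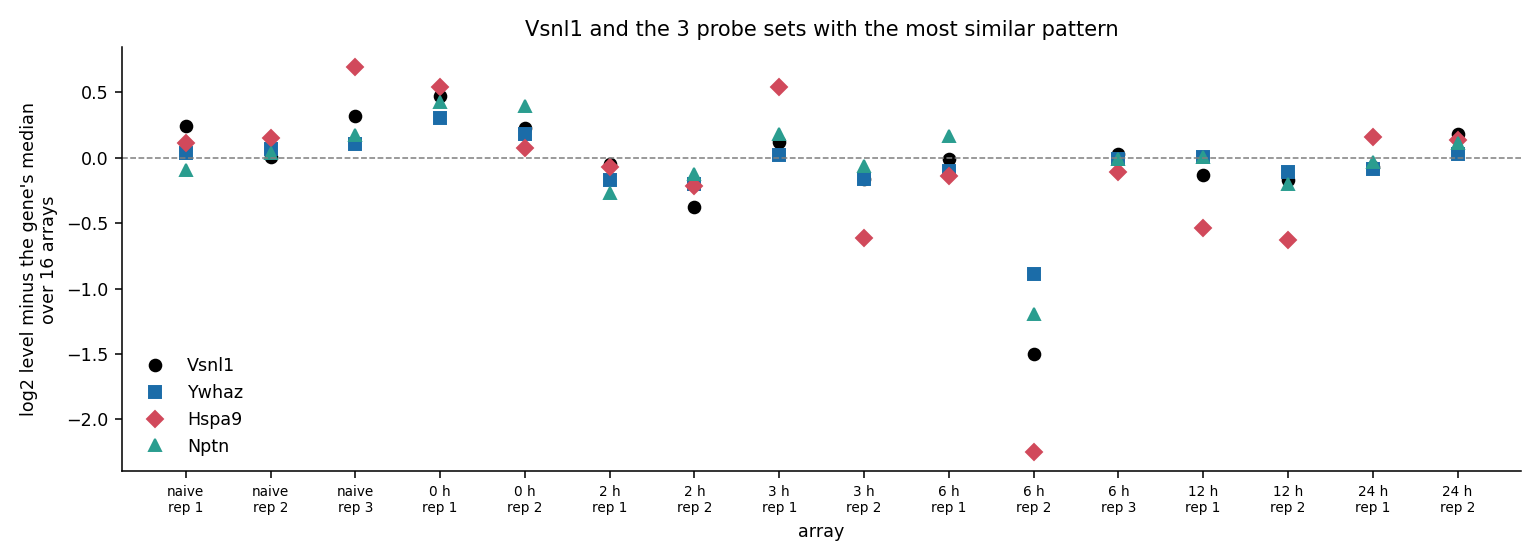
Log2 level minus the gene's own median over 16 arrays (vertical axis) for Vsnl1, Ywhaz, Hspa9 and Nptn on each array (horizontal axis). All 4 are lowest on 6 h replicate 2, and on the 0 h arrays all 4 lie above their medians.

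The patterns nearest to that of Vsnl1 over the 16 arrays were those of Ywhaz, which encodes the zeta form of the 14-3-3 adaptor proteins (Pearson r = 0.968), the mitochondrial chaperone Hspa9 (0.931) and the synaptic adhesion protein neuroplastin, Nptn (0.928). These were the highest of 5124 probe sets with a symbol, chosen for their likeness, and all values share the arrays and their scaling. Without 6 h replicate 2 the correlations over 15 arrays were 0.874, 0.767 and 0.723. On that array Ywhaz read 9.61, Hspa9 3.74 and Nptn 8.21, while the lowest of the other arrays read 10.30, 5.36 and 9.14. The Hspa9 value there was under the level of the filter on dim signals. Other probe sets of these genes followed Vsnl1 less closely (Ywhaz 0.738 and -0.222, Hspa9 0.454 and 0.533, Nptn 0.799).

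Neurogranin, which binds calmodulin rather than calcium itself, was measured by 2 probe sets made from the same sequence record. The first (L09119_at) read 10.13, 9.88 and 10.77 in naive arrays, 10.37 and 10.43 at 0 h, 10.26 and 10.37 at 2 h, and 9.73 and 10.18 at 3 h. At 6 h it read 10.46, 10.62 and 9.45, at 12 h 10.75 and 10.32, and at 24 h 9.88 and 10.20. Its naive arrays lay far apart, from 9.88 to 10.77, and every hour overlapped with them. The means ran in the order 3 h, 24 h, 6 h, naive, 2 h, 0 h and 12 h, with a largest step of 0.14 against a within-group SD of 0.41; of neighbours, only 2 h and 0 h did not overlap. The smallest p was at 3 h, at -0.31 from naive (SE 0.32, limma adjusted p = 0.998), and over all hours the difference was -0.02 (SE 0.22). The 3 h value was -0.050 without naive replicate 3, -0.084 without 3 h replicate 1, -0.50 without naive replicate 2 and -0.53 without 3 h replicate 2; with median centring it was -0.12. For all hours together, the sign of the difference turned under at least 1 alternative for Calb2, Hpca, Vsnl1 and this Nrgn probe set, and for the other 3 probe sets it did not.

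The second Nrgn probe set (L09119_g_at) had tight naive values of 10.74, 10.65 and 10.82. It read 10.64 and 10.58 at 0 h, 10.98 on both 2 h arrays, 10.41 and 11.06 at 3 h, and 11.48, 11.26 and 10.40 at 6 h. At 12 h it read 11.64 and 10.83, and at 24 h 10.59 and 10.87. The 2 h and 12 h arrays lay above all naive arrays and the 0 h arrays below them. Means ran in the order 0 h, naive, 24 h, 3 h, 2 h, 6 h and 12 h; the largest step was 0.25 against a within-group SD of 0.37, and of neighbours only 0 h and naive did not overlap. At 12 h Nrgn was 0.50 above naive by this probe set (SE 0.30, 95% interval -0.13 to 1.14, limma adjusted p = 0.575, above the naive mean in 2 of 2 arrays). That value was 0.09 without 12 h replicate 1, 0.91 without 12 h replicate 2, 0.31 with quantile normalization and 0.30 with the actin ratio as a covariate. By the first probe set the 12 h difference was 0.28 (SE 0.32). Over all hours the second gave 0.16 (SE 0.21, limma adjusted p = 0.990), and 0.019 with quantile normalization.

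Counted over the 42 pairs of a probe set and an hour, the arrays of an hour lay wholly outside the naive range in 10 (23.8%): 4 above and 6 below. Over all 6220 probe sets and the 6 hours that share was 21.2%. At 2 h Calb2, Pvalb and Vsnl1 lay below and the second Nrgn probe set above, where 11.7% of all probe sets lay below and 15.3% above. At 12 h Vsnl1 lay below (background 11.8%), and Pvalb and the second Nrgn probe set above (15.9%). At 3 h Calb2 lay below (12%) and Pvalb above (7.3%), and at 0 h the second Nrgn probe set lay below (11.7%). At 6 h and 24 h no member lay outside, where 4.34% and 8.86% of all probe sets lay above and 6.56% and 11.8% below. The members' share was close to the background, and nothing is read from it.

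Correlation over the 16 arrays was tested for each pair of the 7 probe sets. Of 21 pairs among them, 0 had a Benjamini-Hochberg adjusted permutation p under 0.05 (100000 permutations, two-sided). With 16 arrays this does not show that they varied separately, since the 2 probe sets of Nrgn did not pass either. The highest correlation was between the Nrgn probe sets (Pearson r = 0.71, permutation p = 0.00242, adjusted p = 0.0508; Spearman rho = 0.60, p = 0.0168, adjusted p = 0.118; r = 0.58 without the 2 farthest arrays). Hpca and the second Nrgn probe set came next (r = 0.63, permutation p = 0.00863, adjusted p = 0.0906; rho = 0.68, p = 0.00504, adjusted p = 0.106; r = 0.56 without the 2 farthest arrays). The most negative by Pearson's r was Vsnl1 with the second Nrgn probe set (r = -0.44, permutation p = 0.0948, adjusted p = 0.582; rho = -0.56, p = 0.0270, adjusted p = 0.142; r = -0.38). By Spearman's rho it was Hpca with Vsnl1 (rho = -0.63, permutation p = 0.0102, adjusted p = 0.108; r = -0.30, p = 0.284, adjusted p = 0.676; r = -0.28). Calb1 and Calb2, the closest relatives in structure among the buffers, had an r of 0.19 (permutation p = 0.486, adjusted p = 0.729; rho = 0.10, p = 0.703, adjusted p = 0.860; r = -0.30).

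Brightness of the array went along with 1 of the Nrgn probe sets. The 2% trimmed mean of the deposited intensities, the factor used to scale each array, ran from 33.3 on 12 h replicate 1 to 170 on 24 h replicate 2. On the 4 dimmest arrays (12 h replicate 1, 6 h replicates 1 and 2, 2 h replicate 2) the second Nrgn probe set read 10.98 to 11.64 after scaling, and on the 4 brightest (24 h replicate 2, 3 h replicate 1, naive replicates 1 and 3) 10.41 to 10.87. Against log2 of the trimmed mean its Pearson r was -0.77 (permutation p = 0.00057, adjusted p = 0.0120 over 21 relations; rho = -0.57, p = 0.0228, adjusted p = 0.256), and -0.49 without the 2 farthest arrays. So only the Pearson value passed, and it rests in part on those arrays. The first Nrgn probe set did not pass (r = -0.50, permutation p = 0.0507, adjusted p = 0.355; rho = -0.51, p = 0.0448, adjusted p = 0.256; r = -0.30 without the 2 farthest). For Hpca r was -0.59 (permutation p = 0.0143, adjusted p = 0.151; rho = -0.54, p = 0.0347, adjusted p = 0.256; r = -0.52 without the 2 farthest). With quantile normalization the r was -0.56 for the second Nrgn probe set and -0.04 for Hpca. Vsnl1 ran the other way (r = 0.41, permutation p = 0.111, adjusted p = 0.466; rho = 0.49, p = 0.0578, adjusted p = 0.256; r = 0.57). All naive arrays were among the brighter ones (113 to 143), the 2 h arrays were dim (56.6 and 72.6), and the part of brightness in the 2 h, 6 h and 12 h values was not tested.

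**Figure D4:**
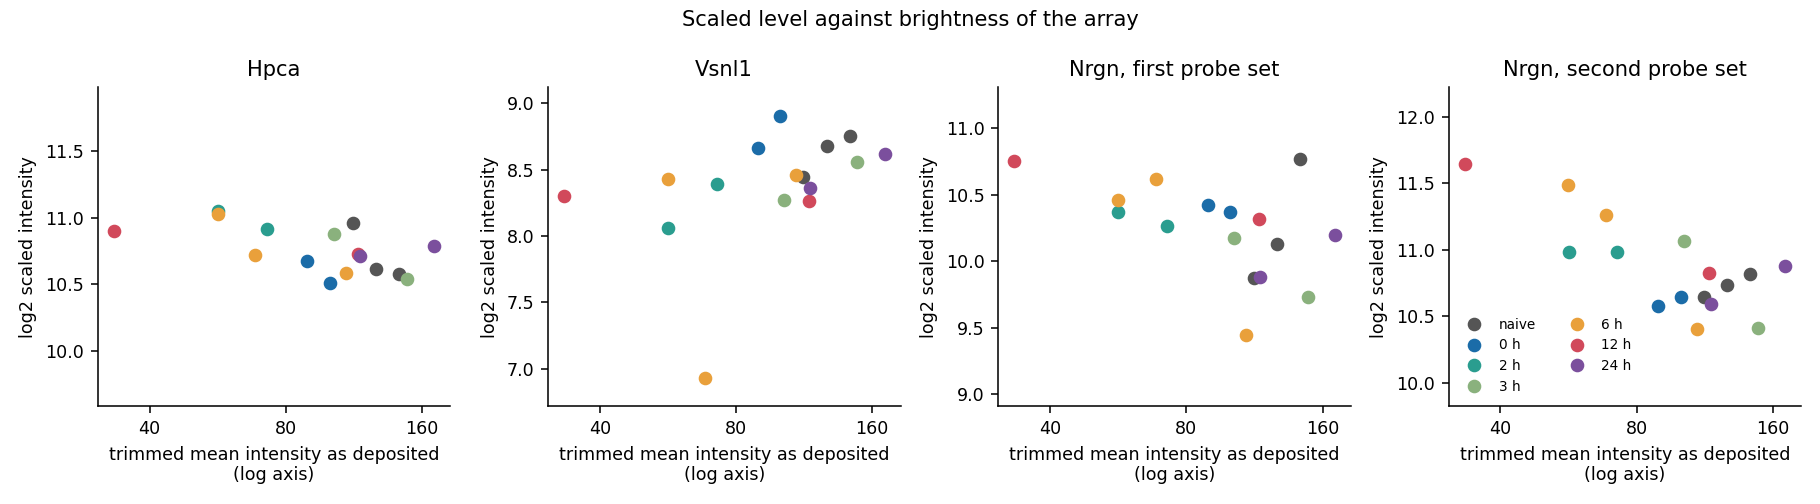
Log2 scaled intensity (vertical axis) of Hpca, Vsnl1 and the Nrgn probe sets against the trimmed mean intensity of each array as deposited (horizontal log axis), coloured by group. The second Nrgn probe set is highest, 11.64, on the dimmest array, 12 h replicate 1.

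The same 21 relations held the beta-actin 3'/5' ratio, which rises when the labelled RNA is shorter, and the level of the choroid plexus transcript Ttr; 0 of these 14 passed. The actin ratio was 1.49 to 1.70 in naive arrays. At the hours it overlapped with that range only at 3 h (1.51 to 2.15), and was 1.77 to 2.80 at the others. Ttr was 10.80 to 11.94 in naive arrays and 10.32 to 11.96 at 6 h. It was 7.04 to 11.26 at 0 h, and 6.14 to 9.03 over the 2 h, 3 h, 12 h and 24 h arrays. Both measures thus differed between naive and most hours. Each was also fitted as a covariate. Where a measure differs with the group, such a fit cannot tell its part in the members' differences from that of the hour. Correlations between arrays over the tested probe sets were 0.908 to 0.973. Of 11 granule neuron markers 2 were on the array and 1 was tested, Neurod1, with group means of 6.53 at 3 h to 7.34 at 0 h (naive 6.95). Of 14 interneuron markers other than the members, 11 were on the array and 9 tested, and none was at the lowest level on all arrays. Their summed scaled level, which the brighter markers dominate, was 1792 to 2957 in naive arrays and 1719 to 3101 at the hours, so the ranges overlapped. From 0 h to 24 h, 6, 4, 1, 3, 4 and 3 of the 9 tested were above naive, and 0 passed limma's test after adjustment. Their median difference was -0.20 at 3 h, beside -0.07 over all probe sets, and between -0.14 and 0.12 at the other hours. Summed choroid plexus, ependyma and meninges markers (10 of 11 on the array, all 10 tested) were 2395 to 6005 in naive arrays and 401 to 4938 at the hours; their part in any member's value was not tested.

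The other patterns nearest to members, 3 each, had lower correlations over the 16 arrays and are given as a description of the highest among 5124 probe sets (5123 for Nrgn). For Calb1 they were the nucleolar protein Gnl3 (r = 0.788), the RNA-binding protein Hnrnpa1 (0.785) and Maea (0.776). For Calb2 they were the adrenergic receptor Adra2a (0.773), Emb (0.770) and Ly6c (0.764). Guanylate kinase Guk1 (0.814), Tango2 (0.744) and Ntan1 (0.716) were nearest to Pvalb. Crybb2 (0.822), Nkx2-5 (0.812) and Prkd3 (0.810) were nearest to Hpca. The formin Inf2 (0.924) and the ribosomal proteins Rps24 (0.908) and Rpl5 (0.874) were nearest to the second Nrgn probe set. Of the 6 calcium-binding protein genes with a probe set, none stood among the 3 nearest to another.

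Other genes that bind calcium or act with calmodulin were listed by role. The first list held 39 relatives, most with EF-hands or calcium-sensing roles, such as calmodulins, S100 proteins and hippocalcin-like proteins. It also held chaperones that bind calcium, such as calnexin. Of the 39, 21 were on the array and 17 were tested, with 1 probe set each. In limma's F test over the 7 groups, 0 of these 17 were called, beside 0% of all probe sets, and 3 had a p under 0.05 before adjustment, beside 10.3%. Against naive, 0 of 17 passed at any hour in either direction. From 0 h to 24 h, 9, 9, 5, 11, 7 and 6 of the 17 were above naive, where 47.3%, 52.7%, 41.3%, 46.8%, 55.9% and 49.5% of all probe sets were. Their median difference was -0.14 at 3 h and -0.15 at 24 h, beside -0.07 and -0.0044 over all 6220 probe sets, and lay between -0.03 and 0.07 at the other hours. Hippocalcin-like 4 (Hpcal4), a close relative of Hpca, read 7.42, 6.43 and 6.11 in naive arrays and 5.52 and 5.44 at 12 h. The difference was -1.17 (SE 0.35, limma adjusted p = 0.317), and -1.42 (SE 0.82) and -0.86 (SE 0.39) by the gene's 2 other probe sets. Naive replicate 1 stood above the other naive arrays, and all 12 h arrays were below every naive array. The endoplasmic reticulum chaperone calnexin (Canx) was -0.63 at 2 h (SE 0.26, limma adjusted p = 0.600), and its 4 other probe sets gave -0.70 to -0.01. For Sparc, a secreted matrix protein that binds calcium, limma's F test had an unadjusted p of 0.0315 and an adjusted p of 0.465, while its 3 other probe sets had unadjusted p of 0.419 to 0.943. At 6 h Sparc was 0.43 above naive (SE 0.25), and -0.07, -0.01 and 0.10 by the others.

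Of 33 calmodulin targets and partners of neurogranin, 25 were on the array and 21 were tested. Of these 21, 0 were called by limma's F test, and 4 (19.0%) had a p under 0.05 before adjustment, beside 10.3% of all probe sets. From 0 h to 24 h, 10, 12, 9, 18, 13 and 9 of the 21 were above naive, beside the shares of all probe sets just given. The median was 0.15 at 6 h beside -0.03 over all probe sets, 0.11 at 12 h beside 0.06, 0.10 at 2 h beside 0.03, and between -0.04 and -0.01 at the other hours. No gene of the list passed at any hour in either direction. Camk2b, the beta subunit of calmodulin kinase II, read 11.44 and 11.79 at 2 h, above every other array (9.33 to 10.98). Against naive it was 3.08-fold higher there (log2 difference 1.62, SE 0.38, limma adjusted p = 0.236), and 1.39 (SE 0.45) by a second probe set. The gamma subunit gene Camk2g was 1.07 higher at 2 h (SE 0.34, limma adjusted p = 0.430), and 0.50 (SE 0.31) by another probe set. The remaining probe set of Camk2g gave 2.26 at 2 h (SE 0.53, limma adjusted p = 0.236). Its naive mean of 2.78 was under the level of the filter on dim signals, so the size of that difference is not firm. Marcks, a membrane protein that binds calmodulin, was 0.59 higher at 12 h (SE 0.32, limma adjusted p = 0.546). Its other tested probe sets gave -0.51 (SE 0.61) and 0.83 (SE 0.39) there. Naive means of all its other probe sets were under the level of the filter on dim signals.

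**Figure D5:**
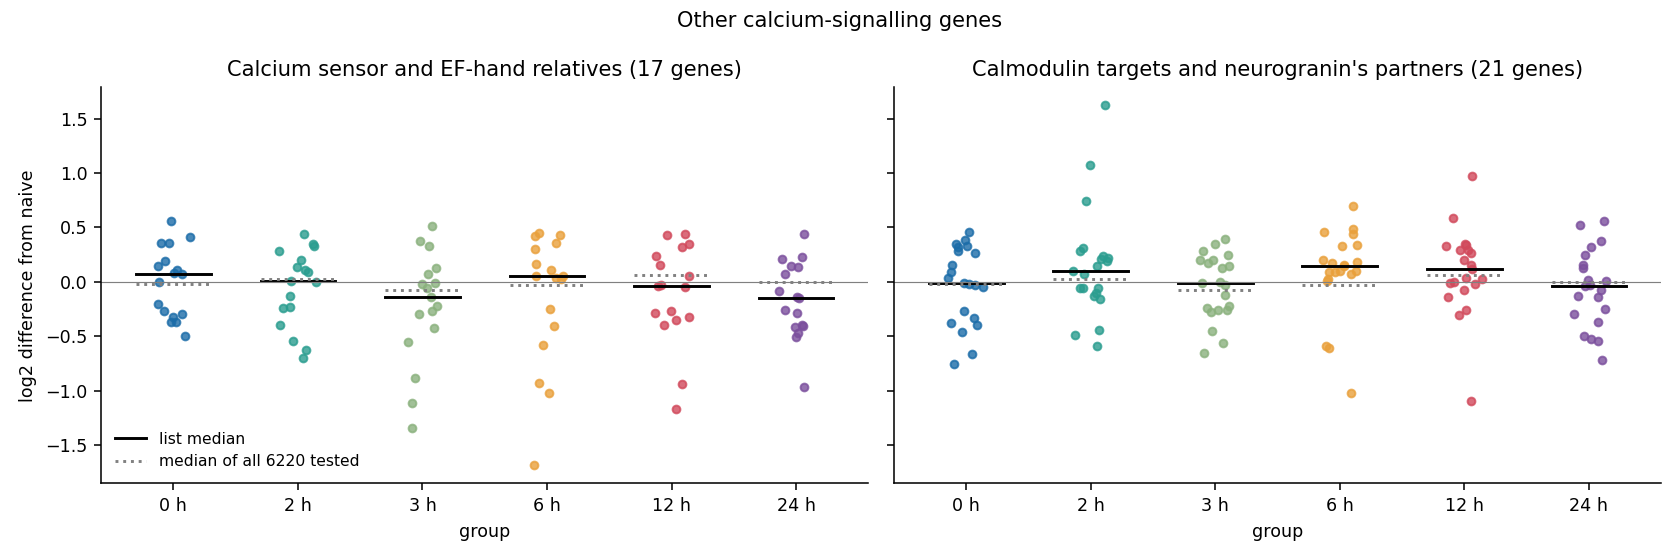
Log2 difference from naive (vertical axis) at each hour (horizontal axis) for the 17 relatives and the 21 calmodulin targets tested, 1 point a gene. Solid lines give the list's median and dotted lines the median of all 6220 tested probe sets; the highest point at 2 h on the right is Camk2b (1.62).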

How the data were processed

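The deposited values are linear intensity summaries by the authors, 1 per probe set and array; how they were summarised, background-corrected and scaled is not given in the sources used here. Array and tissue are named per the labels. The table had 8799 probe sets, 59 of them controls. Each array was scaled so that its 2% trimmed mean was 105, and values below 5.05, the pooled 20th percentile, were set to 5.05 before log2. The 6220 probe sets above the pooled 40th percentile (16.9) on at least 2 arrays were tested. Symbols were updated by gene identifier (6994 rows); 7006 probe sets carried 1 symbol, 308 several, and 1426 were not listed. Models were fitted over all 7 groups with limma 3.58.1 in R 4.3.3 (eBayes with a variance trend), adjusted by Benjamini-Hochberg at 0.05 over all probe sets tested. The fit was also run on simulated data with planted differences larger than any found for a member. That run says nothing on differences of the members' size. Intervals are 95% and come from that fit. The number of arrays limits the precision. Correlations used 100000 permutations. The members and lists were chosen with earlier results of these data known. The rule for names took all member probe sets, the hour of smallest p, the 3 nearest patterns a gene, and per related list the 3 smallest F test p. Alternatives changed the scaling, lowest level, filter, variance model, array weights, replicate block, covariates (actin ratio, Ttr), averaging per gene, samples fitted, and left out each array.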

Additional observations from a re-analysis of the deposited data

How the results depend on the processing

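No calcium-binding protein probe set passed limma's threshold in any of the 9 comparisons under any of the alternatives run (268 counts, all 0); the smallest adjusted p of a member was 0.182, for Vsnl1 at 6 h without 6 h replicate 3. For all hours together against naive, a fit of only the groups compared is the reported fit and was not run again. Signed differences of members were followed over all alternatives only for all hours together and, per probe set, for the hour of its smallest p. Other hours were followed only under median centring and quantile normalization, and there some signs turned. Hpca at 6 h, for example, was 0.06 in the reported fit and -0.17 with quantile normalization. Calb1 at 3 h was -0.01 in the reported fit and 0.17 with median centring. Of the 413 differences followed over all alternatives, 399 kept their sign and 14 turned, all of them for all hours together. In 1 of the 14 the mean of both Nrgn probe sets stands in for the first. With the Ttr level as a covariate Calb2 was 0.070 and Vsnl1 0.017; with the actin ratio Vsnl1 was 0.12. Hpca was -0.081 with quantile normalization and -0.015 with the replicate block. The first Nrgn probe set was 0.014 with median centring and 0.048 with array weights. Averaged per gene, which takes the mean of both Nrgn probe sets, Nrgn was 0.067. Leaving out single arrays gave -0.016 to 0.18 for Hpca, negative only without naive replicate 3. It gave -0.21 to 0.23 for the first Nrgn probe set, positive without naive replicate 3 (0.23), the third 6 h array (0.038), the first 3 h array (0.015), the second 12 h array (0.014) or the first 24 h array (0.0038). The cause of these turns was not tested. Of 43 pairs of arrays with the same replicate number (r -0.20 to 0.19) 12 were over 0.1, so pairing of every such pair was not shown. These correlations are of deviations from the group mean, and in a group of 2 arrays such deviations mirror each other. Counts of pairs or arrays are therefore not independent. As a description only, 12 of 16 arrays correlated best with an array of their own number, and whether the numbers mark a shared batch was not tested. With the replicate block the count of members called was 0, as without it, while for all hours Calb1 was 0.21, Pvalb 0.16 and the second Nrgn probe set 0.040. Median centring moved the median of all probe sets by 0.18 at 3 h, where Pvalb was then 0.51 above naive. All 7 probe sets were above the filter on all 16 arrays, but the filter is no call of detection and was applied after scaling. On 12 h replicate 1, for example, Calb2 was deposited at 21.7 and scaled to 68.6. Whether dim signal limits a member was not tested.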
